A study of Mus musculus with 23 samples.

Results

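The small-intestinal scrapings with the most ileal bile acid transcripts were set against those with the least. The 16 arrays of this comparison were chosen by 2 measured transcripts, Slc10a2 and Fabp6, out of the 23 arrays of the series, with 1 array and 1 mouse each. For each array the ileal score was the mean, over the spots of Slc10a2 and Fabp6, of log2(Cy5/Cy3) of the mean spot signals after subtraction of the array's median over all non-control spots. The 8 arrays with the highest score are called the high set, the 8 with the lowest the low set, and the 7 between them the middle arrays. These sets were selected on measured values and are not groups of the study, which compared diets and assigned no mouse to a set. All mice were adult male C57BL/6J animals that were adapted on a normal-fat diet over 3 weeks. High-fat feeding followed for 12 weeks, in 12 mice without a supplement (HF) and in 11 with 0.33% (w/w) of the flavonol quercetin (HF-Q), and food was withdrawn 2 to 4 h before sacrifice. The Cy5 product of each mouse was read against a Cy3 pool of all mice, so values are log2 ratios against the pool. The sample was always in Cy5, and 0 on a probe need not be the pool's level. Fabp6, for example, averaged above 0 under both diets (0.39 with HF and 0.70 with HF-Q). Values are therefore compared between arrays, not with the pool. The labels give no position along the intestine for any scraping, and 1 protocol field names liver as the extracted tissue, against the other labels. All 12 enterocyte markers were well above background on all 23 arrays. The hepatocyte markers were mixed. Of the 11 that the array carries, 6 reached this level in every mouse, and 2, Ahsg and Mup3, in none.

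The intestine changes its gene expression from duodenum to ileum. Proximal enterocytes absorb iron, folate, calcium, sugars and much of the dietary fat, and carry the transcription factors Gata4 and Onecut2. Enterocytes of the distal ileum recover bile acids. Slc10a2 is the sodium-dependent transporter that takes bile acids up from the lumen, Fabp6 is the protein that binds them in the cytosol, and the Slc51a and Slc51b subunits form the exporter of the basolateral membrane. Nr1h4, the nuclear receptor FXR, senses bile acids and induces the hormone Fgf15. Lymphoid follicles and Paneth cells, which release antimicrobial peptides at the crypt base, are more abundant toward the ileum, and 5' members of the Hox clusters mark more posterior positions of the gut.

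The readout that ranked the mice was a pair of 60-base probes, shown here because every set in the comparison follows from them. Both are given as the array files hold them, with probe positions on mouse build mm9; the Fabp6 probe lies at chr11:43410973-43411032 and the Slc10a2 probe at chr8:5086145-5086204, both on the minus strand.
Fabp6: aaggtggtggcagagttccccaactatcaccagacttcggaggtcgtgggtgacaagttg
Slc10a2: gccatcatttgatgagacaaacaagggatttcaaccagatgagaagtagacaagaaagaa

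The score ran from -0.86 to 2.32. Its mean was 1.85 ± 0.31 (SD, n = 8) in the high set, 1.26 ± 0.15 (SD, n = 7) in the middle arrays and 0.54 ± 0.73 (SD, n = 8) in the low set. The sets are not separated by a natural gap. HF-Q 9, the last array inside the high set, had a score of 1.53 and HF 5, the first outside it, 1.51. HF-Q 4, just outside the low set, and HF-Q 2, just inside it, both had 1.04. At the low end HF 1 (-0.29) and HF 3 (-0.86) stood apart from the other 21 arrays, the next of which, HF 6, had 0.45. Many of the calls below did not hold over the 21 arrays without these 2 mice.

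After loess normalization, the scale of all values that follow, Fabp6 was 0.72, 0.98 and 1.44 (lowest, median and highest) in the high set and -1.37, 0.51 and 0.71 in the low set. Slc10a2 was -0.08, 0.24 and 1.14 in the high set and -2.70, -0.81 and -0.25 in the low set. These 2 rows describe the choice and carry no test. Neither transcript overlapped between the sets, but the low set was wide. Only HF 6, HF 1 and HF 3 had Fabp6 below 0, whereas all 8 low arrays had Slc10a2 below 0. A second probe of Slc10a2, which the rule did not use and which the array files name 9130221J18Rik (chr8:5083366-5083425, mm9), was -0.18, 0.41 and 0.98 in the high set and -2.55, -0.73 and -0.15 in the low set. On this probe the sets overlapped by 1 array each, HF-Q 3 in the high set and HF 9 in the low set.

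**Figure D1:**
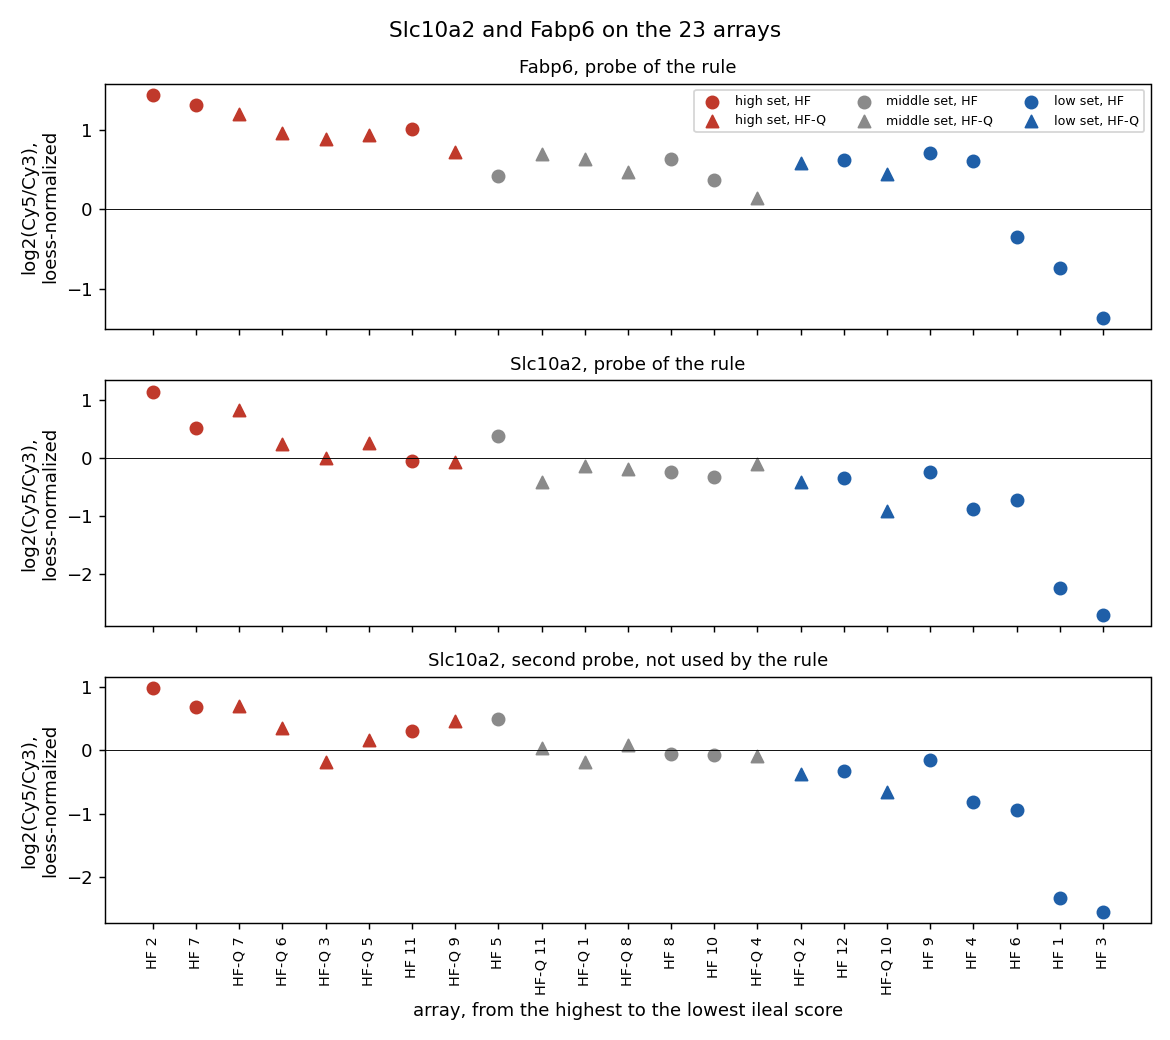
Loess-normalized log2(Cy5/Cy3) of Fabp6 and of both Slc10a2 probes on the 23 arrays, 1 point per mouse, ordered from the highest to the lowest ileal score; circles are HF and triangles HF-Q, and colours give the high, middle and low sets. HF 1 and HF 3, at the right, lie lowest in all 3 panels, and values fall gradually through the rest.

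The diets were unevenly spread over the sets. The high set held 3 HF and 5 HF-Q mice, and the low set 6 HF and 2 HF-Q mice. The score was 1.02 ± 0.92 (SD, n = 12) with HF and 1.43 ± 0.35 (SD, n = 11) with HF-Q. The diets' difference in the transcripts themselves did not pass the test: Fabp6 was 0.39 ± 0.82 (SD, n = 12) with HF and 0.70 ± 0.29 (SD, n = 11) with HF-Q, a difference of 0.31 (SE 0.24, adjusted p = 0.951, limma across all genes). Slc10a2 was -0.48 ± 1.09 (SD, n = 12) with HF and -0.09 ± 0.44 (SD, n = 11) with HF-Q, a difference of 0.39 (SE 0.33, adjusted p = 0.951, limma). Diet was therefore a covariate in the main comparison of the sets. Without it, 0 genes passed an adjusted p of 0.05 in either direction (limma), and 1955 were higher and 1479 lower at an unadjusted p under 0.05. The arrays came from 3 slides, which held 2, 3 and 3 arrays of the high set and 4, 2 and 2 of the low set. The median Cy5 intensity of an array was 93.9 to 119 in the high set and 97.7 to 123 in the low set.

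The first question was which other genes differ between mice with much and with little ileal transcript. Against the spread within the sets, none of 21475 genes passed an adjusted p of 0.05 in either direction (limma, 8 against 8 arrays, Benjamini-Hochberg over all genes; called: 0% higher and 0% lower). The smallest adjusted p was 0.0758, of Cfap52, and 4 genes, all higher in the high set, were under 0.10. At an unadjusted p under 0.05, 1588 genes were higher (7.39% of those tested) and 1143 lower (5.32%), which is 12.7% together. The same count was 1044 higher and 454 lower when arrays were centred on their median in place of loess. With an array left out it ranged from 933 to 2354 higher and from 739 to 1548 lower. The threshold passed 602 genes for the interaction with diet and 414 within the middle arrays. It passes 5% on average when no gene differs, but the share varied widely between fits. Whether 12.7% exceeds chance was not tested. In 26 genes (0.121%) every high array exceeded every low array, and in 25 genes (0.116%) every high array was below every low array.

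Over all 23 arrays, with diet as a covariate, 213 genes (0.992%) rose and 171 (0.796%) fell with the ileal score at an adjusted p under 0.05 (limma); the slope is the change in log2(Cy5/Cy3) per unit of score. This fit leans on the mice at the low end. Without HF 1 and HF 3, 29 genes (0.135%) rose and 2 (0.00931%) fell over the remaining 21 arrays, of which 26 and 2 were also called over all 23. Of the 318 genes with a RefSeq name called over 23 arrays, all 318 had a slope of the same sign over the 21. These 21 arrays are among those that called the genes, so the agreement in sign was largely set in advance. With acinar and smooth muscle levels as covariates the 23-array counts were 166 and 174, and without the highest-scoring mouse, HF 2, they were 979 and 478. Within the 7 middle arrays no gene passed (limma; 414 at an unadjusted p under 0.05).

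**Figure D2:**
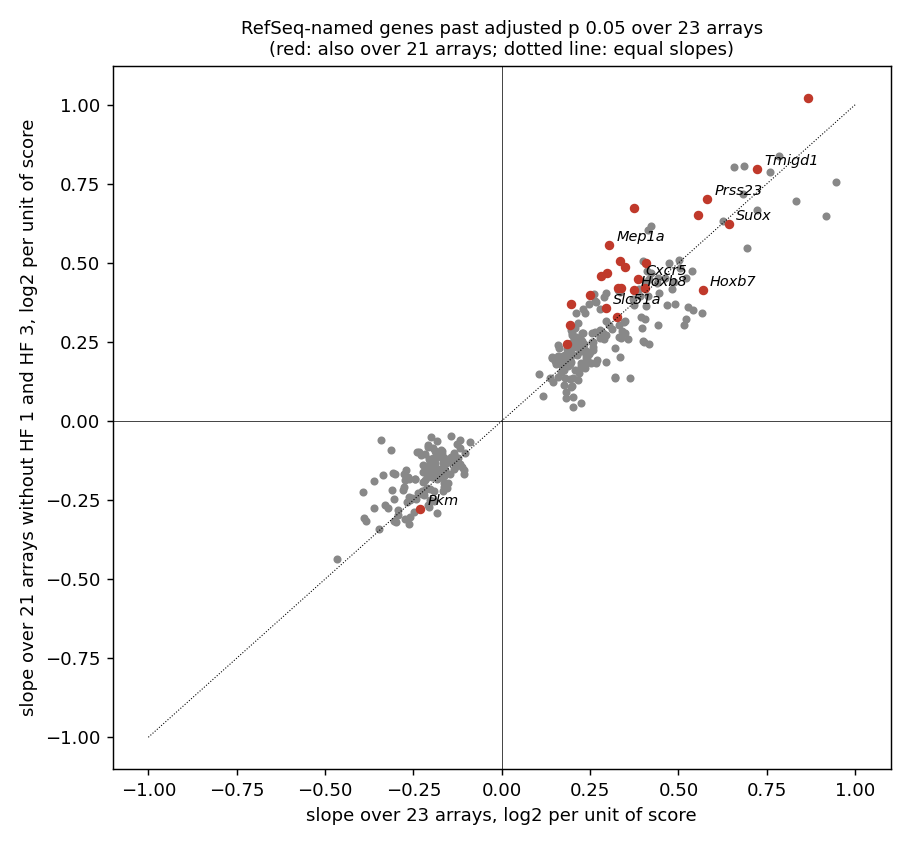
Slope of each of the 318 RefSeq-named genes called over 23 arrays (horizontal axis, log2 per unit of score) against its slope over 21 arrays without HF 1 and HF 3 (vertical axis, same unit), 1 point per gene, with genes called in both fits in red. All 318 points have slopes of the same sign on both axes, which share 21 arrays, and most of the red points are positive.

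The genes that followed the score most closely were Suox, a mitochondrial sulfite oxidase, and Tmigd1, an epithelial adhesion protein of the brush border; both were singled out after their values were seen. Suox was -0.13, 0.21 and 0.65 in the high set and -1.67, -0.48 and -0.10 in the low set. Its slope was 0.64 (SE 0.05, adjusted p = 2.8e-08, limma) over 23 arrays and 0.62 (adjusted p = 0.00039) over 21. Tmigd1 was 0.02, 0.31 and 0.93 in the high set and -1.66, -0.52 and -0.02 in the low set, so that the sets did not overlap. Its slope was 0.72 (SE 0.05, adjusted p = 2.8e-08, limma) over 23 arrays and 0.80 (adjusted p = 4.1e-05) over 21. Prss23, a secreted serine protease, Car12, a membrane carbonic anhydrase, and Bex4 also rose with the score in both fits, with slopes over 23 arrays of 0.58, 0.40 and 0.55 and adjusted p over 21 arrays of 0.00035, 0.012 and 0.0095 (limma); Car12 and Bex4 were likewise picked after their values were seen. Pkm, a pyruvate kinase of glycolysis, fell. It was -0.50, -0.18 and -0.07 in the high set and 0.01, 0.08 and 0.43 in the low set, and its slope was -0.23 (SE 0.03, adjusted p = 0.00016, limma) over 23 arrays and -0.28 (adjusted p = 0.015) over 21.

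Of the other genes of ileal bile acid handling, the exporter subunit Slc51a and the receptor Nr1h4 rose with the score, and the other 8 measured did not pass. Slc51a was 0.22, 0.33 and 0.72 in the high set and -0.33, -0.04 and 0.20 in the low set. Every high array exceeded every low array, and the difference was 0.41 (SE 0.09, adjusted p = 0.175, limma), a ratio of 1.33. Slc51a rose with the score, with a slope of 0.30 (SE 0.04, adjusted p = 0.00016, limma) over 23 arrays and of 0.36 (adjusted p = 0.017) over 21. Its partner subunit Slc51b was -0.24, 0.06 and 0.51 in the high set and -0.76, -0.38 and 0.12 in the low set, 0.43 higher (SE 0.12, adjusted p = 0.195), and did not pass over 23 arrays (slope 0.21, adjusted p = 0.14, limma). Nr1h4 was -0.14, 0.14 and 0.26 against -0.64, -0.15 and 0.06, and rose with the score over 23 arrays (slope 0.23, adjusted p = 0.016, limma) but not over 21 (0.28, adjusted p = 0.19).

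Fgf15 had the widest range of this group. It was -1.89, -0.25 and 1.62 in the high set and -0.97, -0.26 and 1.94 in the low set, and its highest value in the 16 arrays was that of HF 4, a low array. The medians were nearly equal and the sets overlapped almost fully, with a difference of 0.35 (SE 0.49, adjusted p = 0.791, limma). The FXR target Nr0b2, the exporter Abcc3 and the bile acid ligase Slc27a5 differed by -0.15, -0.23 and -0.14, and the receptor Gpbar1 and the sterol hydroxylase Cyp27a1 by 0.07 and 0.04, none of them past the test. Slc10a1, the uptake carrier of hepatocytes, differed by -0.25. Of the 10 measured genes of this list 6 were higher and 4 lower, with a median of 0.06 against 0.00 for all genes tested. That median was 0.003 without the diet covariate, 0.02 without HF 12, 0.03 without HF-Q 3 and -0.05 with Cy5 signals alone in place of ratios.

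A run of Hoxb genes rose with the score. Of 16 measured Hox genes of 36, 15 were higher in the high set, with a median of 0.13, and 5 rose with the score over 23 arrays, all of them neighbours in the Hoxb cluster (Hoxb5 to Hoxb9), against 0.992% of all genes. The list's median was 0.03 with acinar and muscle levels as covariates, 0.21 without HF-Q 10 and 0.02 for the slope with the replicate block. Hoxb7 was -0.07, 0.37 and 0.55 in the high set and -1.08, -0.13 and 0.34 in the low set, with a slope of 0.57 (SE 0.06, adjusted p = 4.3e-06, limma) over 23 arrays. Hoxb8 was -0.05, 0.23 and 0.57 against -0.56, -0.15 and 0.17, with a slope of 0.37 (SE 0.05, adjusted p = 0.0001, limma), and was above background on 8 high and 4 low arrays. Hoxb7 and Hoxb8 were also called over 21 arrays (adjusted p = 0.035 and 0.026). Hoxb6 and Hoxb9 rose over 23 arrays (slopes 0.35 and 0.51, adjusted p = 0.00095 and 0.00027) and missed the threshold over 21 (0.34 and 0.44). In the low set HF 1 and HF 3 had the 2 lowest values of Hoxb6, Hoxb7 and Hoxb9. The genes at the other end of the clusters lay near 0, among them Hoxb2 (0.06), Hoxb3 (-0.02) and Hoxb4 (0.07).

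Other genes of the distal small intestine were higher on balance. Of 24 measured, 20 were higher in the high set, with a median of 0.19, and 6 were so at an unadjusted p under 0.05, against 7.39% of all genes, none past an adjusted 0.05. Among them were the keratin Krt19 (0.34), the L-cell hormones Pyy (0.49) and Gcg (0.24), guanylin, Guca2a (0.47), and the Paneth product Ang4 (0.92). Krt19 was -0.08, 0.20 and 0.34 in the high set and -0.47, -0.14 and -0.01 in the low set, and the sets overlapped (adjusted p = 0.181, limma). The list did not move as a block. Cubn and Amn, which form the ileal receptor for vitamin B12 with intrinsic factor, differed by 0.02 and 0.06, and Clca4b by -0.01. Mme, a brush-border peptidase, fell with the score over 23 arrays (slope -0.17, adjusted p = 0.034, limma) and not over 21 (-0.09, adjusted p = 0.84). Over the 7 HF-Q arrays alone the list's median was -0.08. Of its 24 members, 21 were higher in the high set over the HF arrays and 8 over the HF-Q arrays, and 14 were higher over HF and lower over HF-Q. Examples are the acute-phase gene Saa2 and the antimicrobial lectin Reg3b, with differences of 2.58 and 1.18 over the HF arrays and -0.61 and -0.23 over the HF-Q arrays; the interaction with diet did not pass for any gene.

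Genes of the proximal small intestine went the other way. Of 25 measured, 18 were lower in the high set, with a median of -0.20, and 9 were lower and 1 higher at an unadjusted p under 0.05, against 5.32% and 7.39% of all genes. With the score 5 fell and 1 rose over 23 arrays, against 0.796% and 0.992% of all genes, and 0 passed in either direction over 21 (limma). The list's median stayed below 0 under all 38 alternatives, many of which reuse nearly the same arrays. The median difference was -0.27 within HF, -0.09 within HF-Q and -0.11 without HF 1 and HF 3. As a slope per unit of score over 21 arrays the median was -0.04. Gata4, the factor that keeps jejunal enterocytes from an ileal programme, was -0.11, 0.08 and 0.35 in the high set and 0.12, 0.26 and 0.39 in the low set. Its difference was -0.25 (SE 0.07, adjusted p = 0.198, limma), and it fell with the score (slope -0.16, adjusted p = 0.022; -0.21 and 0.19 over 21 arrays). Onecut2 was -0.60, -0.12 and 0.11 against -0.03, 0.31 and 0.66, and fell with the score (slope -0.35, adjusted p = 0.013, limma; -0.34 and 0.44 over 21 arrays). Slc46a1, the proton-coupled folate transporter, was -0.63, -0.30 and 0.12 against 0.03, 0.15 and 0.75 (slope -0.36, adjusted p = 0.011, limma; -0.27 and 0.63 over 21 arrays). All 8 low arrays had Slc46a1 above 0.

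Khk, the first enzyme of fructose breakdown, was -0.12, 0.24 and 0.46 in the high set and 0.27, 0.55 and 0.87 in the low set, and fell with the score (slope -0.26, adjusted p = 0.0019, limma; -0.24 and 0.29 over 21 arrays). Fabp1, the liver-type fatty acid binding protein, also fell (slope -0.31, adjusted p = 0.0099), but without HF 1 and HF 3 its slope was -0.16 (adjusted p = 0.77). The retinol-oxidizing Adh1, lactase (Lct), Cyp3a11 and the duodenal hormone Cck differed by -0.60, -0.48, -0.32 and -0.28, none past the test. Not every proximal gene was lower. Of the 25 measured, 7 were higher, and the largest difference upward was 0.63, against -0.60 for the largest downward. The peroxisomal oxidase Hao2 was 0.35 higher and rose with the score (slope 0.21, adjusted p = 0.018, limma). Over 21 arrays its slope was 0.29 (adjusted p = 0.089, limma). The sugar carrier Slc5a1, the iron reductase Cybrd1 and the iron exporter Slc40a1 differed by 0.09, 0.18 and 0.12.

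**Figure D3:**
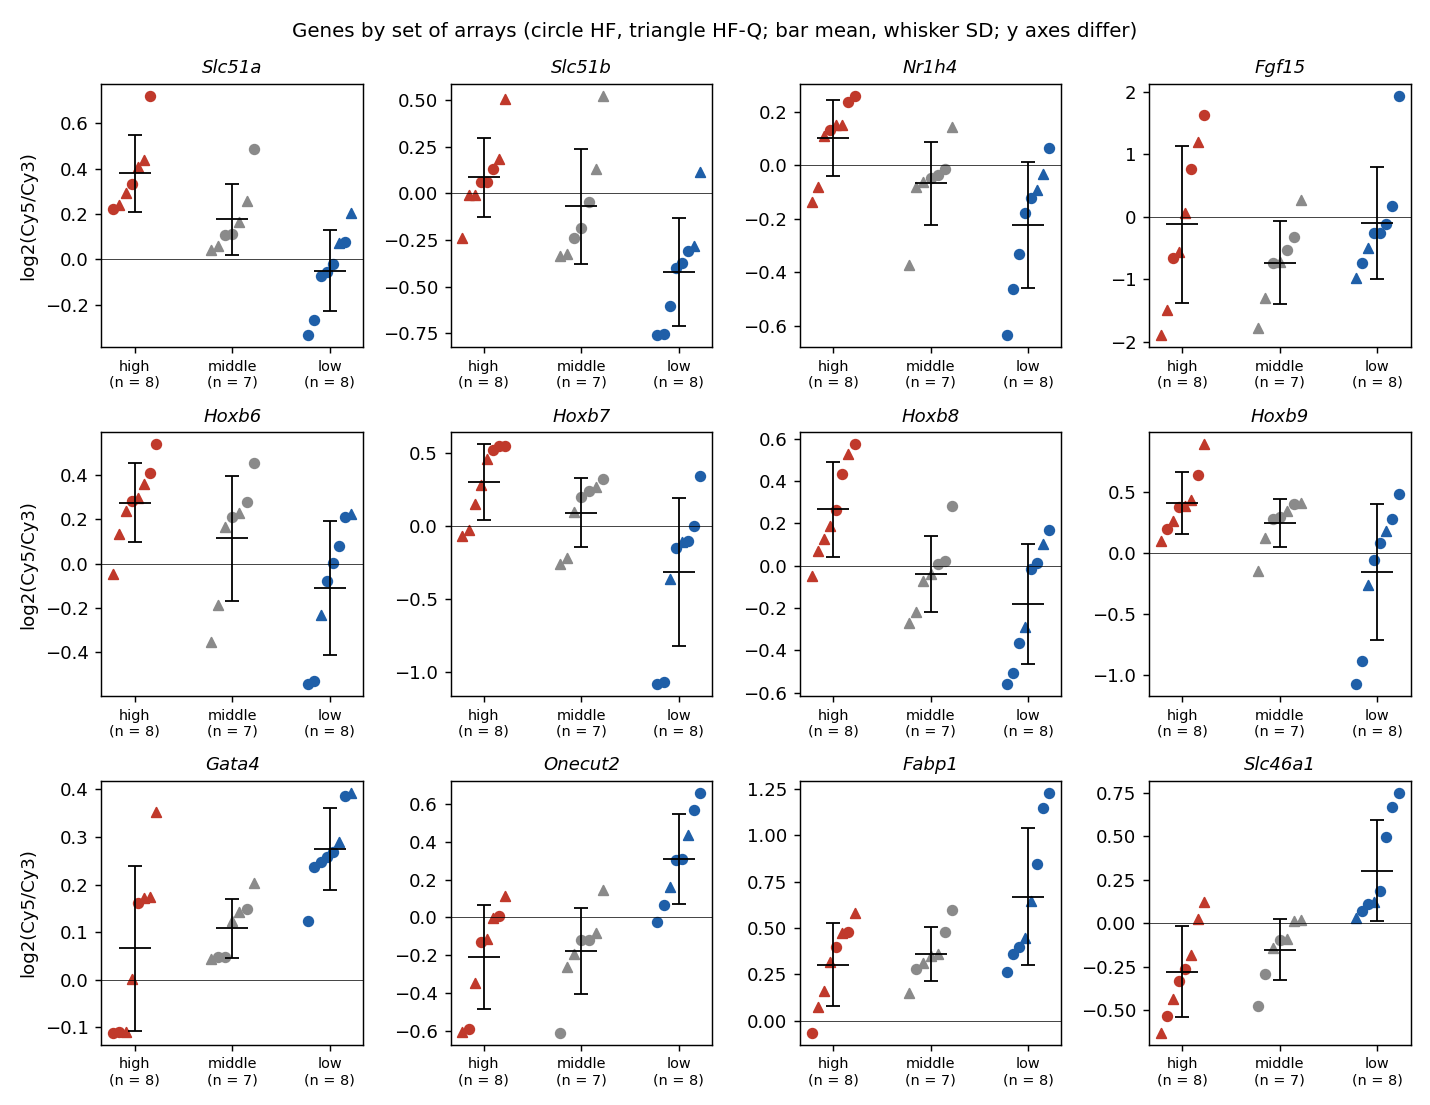
Loess-normalized log2(Cy5/Cy3) of 12 genes in the high (n = 8), middle (n = 7) and low (n = 8) sets, 1 point per mouse (circles HF, triangles HF-Q), with the mean as a bar and the SD as whiskers; the vertical axes differ. Slc51a separates the high from the low set, Fgf15 does not, and the 2 lowest low-set values of Hoxb6, Hoxb7 and Hoxb9 lie below the rest of the low set.

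Regional and epithelial transcription factors were divided, with 15 of 29 higher and a median of 0.01. Foxa1, a forkhead factor of secretory and other epithelial cells, was -0.25, 0.13 and 0.46 in the high set and -0.56, -0.34 and -0.12 in the low set, a difference of 0.55 (SE 0.09, adjusted p = 0.0882, limma), and rose with the score over 23 and over 21 arrays (adjusted p = 0.02 and 0.033). Nr1i3, the xenobiotic receptor CAR, was -0.61, -0.34 and -0.14 against -0.11, 0.03 and 0.43 without overlap of the sets, and fell with the score (slope -0.25, adjusted p = 0.0016, limma). Pparg, a receptor of fatty acids, fell as well (slope -0.20, adjusted p = 0.017). Over 21 arrays the slopes of Nr1i3 and Pparg were about as large, -0.24 and -0.21, with adjusted p = 0.23 and 0.39 (limma). Cdx1 was 0.21 higher, whereas its relative Cdx2, named after its value was seen, differed by -0.02.

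By the rule that names the 15 smallest p-values in each direction between the sets, the higher genes included Cfap52, 9130024F11Rik, Foxa1, Ddah1, Gsdme, Ildr1, Adk, Ppp3cc, Gtf2h3, Fgfbp1, Stk3, Prss23, Gm10522 and Fads2, by 0.32 to 0.83 on the log2 scale. Cfap52, a protein of cilia and flagella, was 0.01, 0.19 and 0.30 in the high set and -0.31, -0.17 and 0.00 in the low set, without overlap (difference 0.39, SE 0.06). Ddah1, which breaks down methylated arginines, was -0.23, 0.20 and 0.69 against -0.51, -0.35 and -0.17 (adjusted p = 0.0976, limma), and Gsdme, a pore-forming gasdermin, was -0.18, 0.08 and 0.65 against -0.77, -0.41 and -0.28 without overlap. Both rose with the score over 23 arrays, Ddah1 over 21 arrays with a slope of 0.49 (adjusted p = 0.033, limma), and Gsdme over 21 arrays with a slope of 0.67 (adjusted p = 0.00019, limma), steeper than the 0.38 over 23. Adk, which phosphorylates adenosine, did not overlap between the sets either (difference 0.32). Of these, Gtf2h3 and Fads2 did not pass in the fit over 23 arrays.

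The lower genes by the same rule were Slc4a5, Scamp1, Gstm6, Rdh12, Nr1i3, BC029722, Ampd1, Ada, Ckb, Dusp16, Olfr469, Pkm, Enpp3, Cyb5r3 and Notum, with differences of -0.27 to -0.63. Slc4a5, a sodium bicarbonate cotransporter, was -0.25, 0.01 and 0.13 in the high set and 0.19, 0.32 and 0.54 in the low set, without overlap (difference -0.37, SE 0.07, adjusted p = 0.125, limma). Ada, which deaminates adenosine and is abundant in the proximal mucosa, was -0.20, -0.03 and 0.12 against 0.23, 0.30 and 0.89, and the AMP deaminase Ampd1 was -0.71, -0.18 and 0.03 against 0.08, 0.38 and 0.84. Neither overlapped between the sets, and neither passed over 23 arrays (adjusted p = 0.11 and 0.20, limma). Rdh12, a retinal reductase, and Notum, which inactivates Wnt ligands, fell with the score over 23 arrays (slopes -0.24 and -0.22); over 21 arrays the slopes were -0.25 and -0.22 and did not pass (adjusted p = 0.45 and 0.59, limma). Gstm6 fell too (slope -0.30, adjusted p = 0.0009, limma; -0.32 and 0.13 over 21 arrays); 3 of its 4 probes had the same sign, and it belongs to a family of closely related glutathione transferases whose probes may share signal.

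Among the absorptive functions, most genes were a little lower in the high set. Of 31 genes of lipid absorption and chylomicrons 28 were lower (median -0.16), of 34 of fatty acid oxidation 32 (median -0.16), of 18 of carbohydrate digestion 15 (median -0.16) and of 53 of xenobiotic metabolism 43 (median -0.20); 1, 2, 3 and 3 of them fell with the score over 23 arrays (limma), against 0.796% of all genes, and 0 over 21. The carbohydrate median was -0.08 without HF 1 and HF 3, -0.09 without HF 3, -0.10 without HF 11 and -0.03 within HF-Q. Apoc2, an apolipoprotein that activates lipoprotein lipase, was -0.02, 0.42 and 0.77 in the high set and 0.34, 1.04 and 1.36 in the low set, and fell with the score (slope -0.39, adjusted p = 0.026, limma). Rbp2, the retinol binding protein of absorptive cells, was -0.46, -0.19 and 0.03 against -0.18, 0.32 and 0.61, and fell as well (slope -0.29, adjusted p = 0.018, limma), as did the fructose pathway kinase Tkfc (slope -0.28, adjusted p = 0.019) and the steroid hydroxylase Cyp3a13 (slope -0.21, adjusted p = 0.017). Over 21 arrays the slopes of Apoc2, Rbp2, Tkfc and Cyp3a13 were -0.31, -0.28, -0.22 and -0.27, none past the test (adjusted p = 0.70, 0.53, 0.65 and 0.19, limma). Aldh1a1, which oxidizes retinal, differed by -0.45 and did not pass the test. Amino acid and peptide handling was divided, with 12 of 25 genes higher and a median of -0.01. Slc1a1, an anionic amino acid transporter, and Mep1a, a brush-border metalloprotease, rose with the score (slopes 0.39 and 0.30, adjusted p = 0.0013 and 0.043, limma), and Mep1a also over 21 arrays (0.56, adjusted p = 0.026), where Slc1a1 did not (0.33, adjusted p = 0.36).

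Of 25 genes of cholesterol synthesis and uptake 24 were higher in the high set, with a median of 0.28, and 15 of them at an unadjusted p under 0.05, against 7.39% of all genes. The median was 0.17 with acinar and muscle levels as covariates, 0.14 with sets by Fabp6 alone and 0.18 within HF-Q. Fdft1, squalene synthase, was -0.21, 0.13 and 0.55 in the high set and -0.46, -0.30 and 0.06 in the low set (difference 0.44, SE 0.10, adjusted p = 0.175, limma). As a gradient fewer members were called: its median slope was 0.12 and 1 member rose over 23 arrays. The 2 mice with the lowest scores were not lowest here, with list means of -0.08 in HF 1 and -0.19 in HF 3 against -0.28 in HF 4 and HF 6.

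**Figure D4:**
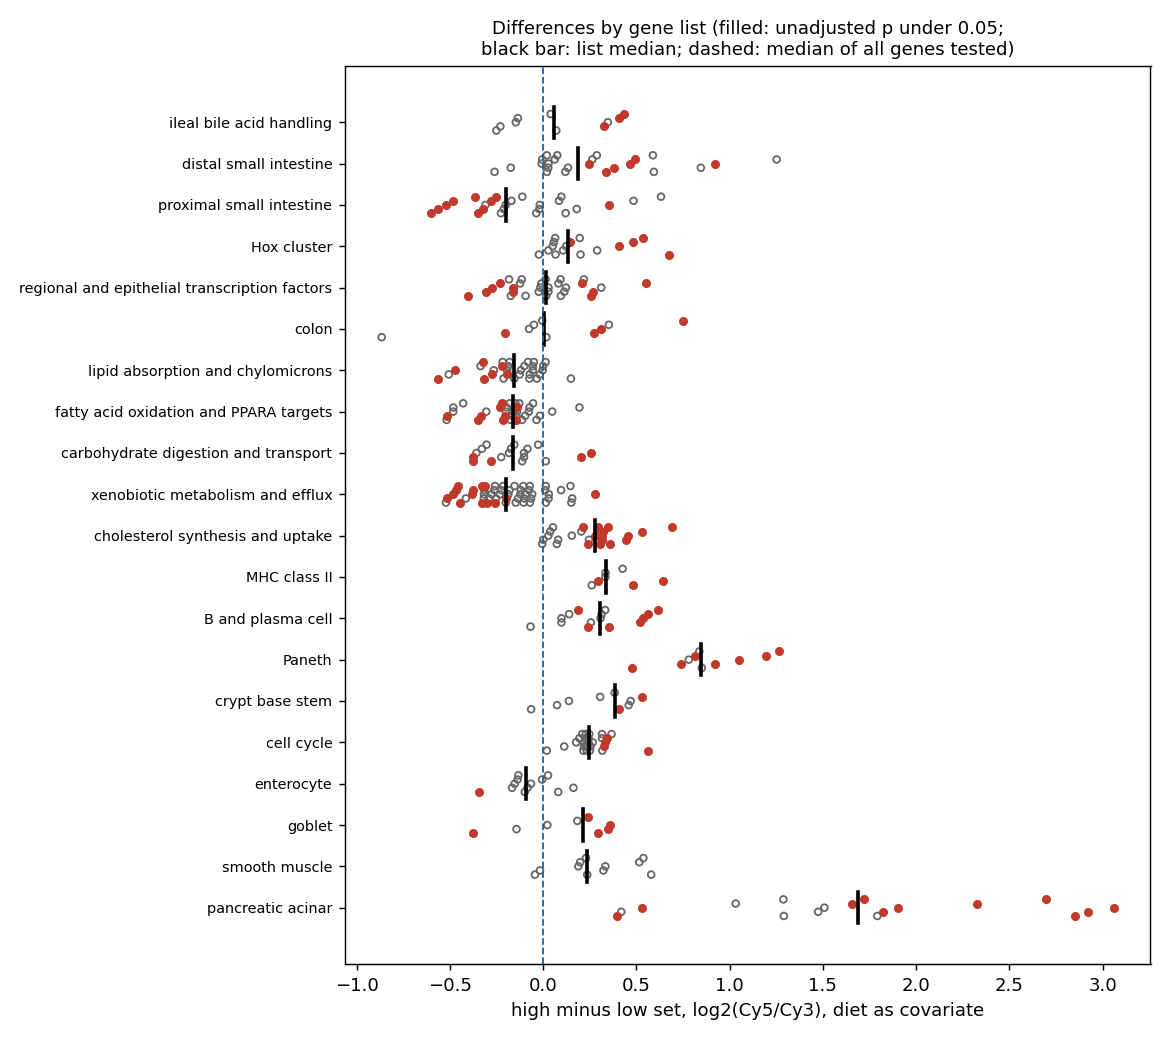
Difference between the high and low sets in log2(Cy5/Cy3), with diet as a covariate, for the measured members of 20 gene lists (rows), 1 point per gene; filled points have an unadjusted p under 0.05, black bars are list medians and the dashed line is the median of all genes tested. Cholesterol, Paneth, B cell and acinar genes lie mostly to the right, and lipid, oxidation and xenobiotic genes mostly to the left.

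In scrapings, fewer cells of a type and less RNA per cell cannot be told apart, and this holds for every list of cell markers. B and plasma cell genes were higher in 14 of 15 cases, with a median of 0.31, and 8 of them rose with the score over 23 arrays, against 0.992% of all genes, and 1 over 21. Cxcr5, the receptor that brings B cells into follicles, was -0.28, 0.11 and 0.64 in the high set and -0.80, -0.37 and 0.00 in the low set, and rose over 23 and over 21 arrays (slopes 0.39 and 0.45, adjusted p = 0.00016 and 0.026, limma). Its ligand Cxcl13 rose with a slope of 0.50 (adjusted p = 0.0001) and came to an adjusted p of 0.051 over 21 arrays. The B cell receptor chain Cd79b and the surface marker Ms4a1, both named after their values were seen, rose over 23 arrays (slopes 0.49 and 0.54) and not over 21 (adjusted p = 0.26 for both). HF 1 and HF 3 had the lowest list means of all 23 arrays, -0.50 and -0.68, and without them the list's median difference was 0.17. All 7 genes of the MHC class II list were higher, with a median of 0.33, and none of the 7 passed in either fit. The list's median slope was 0.19 over 23 arrays and 0.07 over 21. H2-Aa, a chain of the presenting molecule, was -0.40, -0.06 and 0.64 against -1.34, -0.90 and 0.16. The class II genes H2-Ob and H2-Oa, outside this list and named after their values were seen, rose over 23 arrays (slopes 0.35 and 0.26, adjusted p = 0.0012 and 0.011, limma). Over 21 arrays they did not pass (adjusted p = 0.27 and 0.50, limma). T cell genes were divided, with 7 of 19 higher and a median of -0.04, though the adhesion receptor Cd2 rose with the score over 23 arrays (slope 0.36, adjusted p = 0.00043, limma) and not over 21 (0.26, adjusted p = 0.36).

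All 10 measured Paneth cell genes were higher in the high set, with a median of 0.84, which was 0.53 without HF-Q 2. Lyz1, Paneth lysozyme, was -0.26, 0.69 and 0.98 in the high set and -1.73, -0.45 and 0.59 in the low set, and the defensin Defa21 was -0.46, 0.64 and 1.23 against -2.03, -0.71 and 0.72 (differences 1.05, SE 0.39, and 1.27, SE 0.49, adjusted p = 0.311 and 0.315, limma). Both sets were wide and overlapped. Defa21 and Defa5 rose with the score over 23 arrays (adjusted p = 0.049 and 0.045, limma) and not over 21 (0.80 and 0.76); the defensins are near-identical copies whose probes may read each other's transcripts. The list mean was low in 4 of the 8 low arrays, HF-Q 2 (-1.56), HF 1 (-1.15), HF 4 (-0.98) and HF 3 (-0.81), and as high as 0.85 in HF 12. Low values were not confined to the low set. The middle array HF-Q 1 had -1.03 and HF-Q 3, of the high set, -0.45. The list's median slope was 0.61 over 23 arrays and 0.32 with the replicate number as a block.

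Crypt and cycling cell genes were also higher, with 8 of 9 stem cell genes (median 0.38) and 26 of 26 cell cycle genes (median 0.24). Without HF-Q 2 these medians were 0.17 and 0.14, and the median slopes were 0.24 and 0.19 over 23 arrays and 0.12 and 0.05 over 21. The mean of the cell cycle list was also below 0 outside the low set, in HF 2 (-0.33), HF-Q 3 (-0.28) and HF-Q 1 (-0.32). Axin2, a Wnt target, and Ascl2, a stem cell factor, differed by 0.41 and 0.53, Ccnd1 and Mcm6 by 0.56 and 0.34, none past the test between the sets. As a gradient the cycling genes had 0 calls and the stem cell genes 1, Axin2, over 23 arrays (slope 0.24, adjusted p = 0.04996, limma). Over 21 arrays Axin2 did not pass (slope 0.34, adjusted p = 0.21, limma). Of 8 goblet cell genes 6 were higher, among them the secretory regulators Atoh1 (0.29) and Spdef (0.24) and the mucin-folding enzyme Agr2 (0.36), whereas the mucus protein Fcgbp differed by -0.37. Of the 12 enterocyte genes 9 were lower, with a median of -0.09, and intestinal alkaline phosphatase, Alpi, fell with the score over 23 arrays (slope -0.28, adjusted p = 0.013, limma) and not over 21 (-0.17, adjusted p = 0.75). Of 10 colon genes 5 were higher and 5 lower (median 0.01), with differences from -0.87 to 0.75. Retnlb was 0.75 higher and Car4 differed by -0.20. Among defence genes, Duoxa2, the partner of an epithelial hydrogen peroxide source, and Gsdmc4 rose with the score over 23 arrays (slopes 0.83 and 0.69, adjusted p = 0.039 and 0.0009, limma); over 21 arrays the slopes were 0.70 and 0.81 and did not pass (adjusted p = 0.71 and 0.061).

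Markers of pancreas and muscle moved beside these results. All 18 pancreatic acinar genes were higher in the high set, with a median of 1.69; the trypsin Try5 was -5.36, -0.96 and 2.11 in the high set and -5.80, -4.94 and 1.51 in the low set, and the amylase Amy2a5 -5.03, -1.37 and 2.38 against -5.75, -4.84 and 1.72. The mean of the list was -2.97, -0.98 and 1.65 in the high set and -3.17, -2.91 and 1.36 in the low set. In each set 2 arrays had a list mean above 0, and no acinar gene was below background on all arrays. Along the score the median slope of the list was 0.07 over 23 arrays, 1.14 over 21 and -0.37 over 22 without HF 2, with 0 of 18 members called over 23 or over 21. Smooth muscle genes were higher in 9 of 11 cases, with a median of 0.24, which was 0.01 without HF 7, 0.00 without HF-Q 2, 0.48 without HF 2, 0.65 without HF-Q 10 and 0.00 within HF-Q. Their list mean was -0.81, -0.23 and 1.07 against -1.34, -0.42 and 0.80; none passed. With the levels of both lists as covariates, 0 genes passed between the sets, as without them, and the list medians then stood at -0.23 for proximal, 0.16 for distal, 0.38 for B cell, 0.77 for Paneth and 0.54 for MHC class II genes. Nearer 0 than without these covariates were, among others, the medians of distal, Paneth, Hox (0.03) and cholesterol genes (0.17). The same held for cell cycle (0.14), stem cell (0.27), lipid absorption (-0.13) and xenobiotic genes (-0.12).

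**Figure D5:**
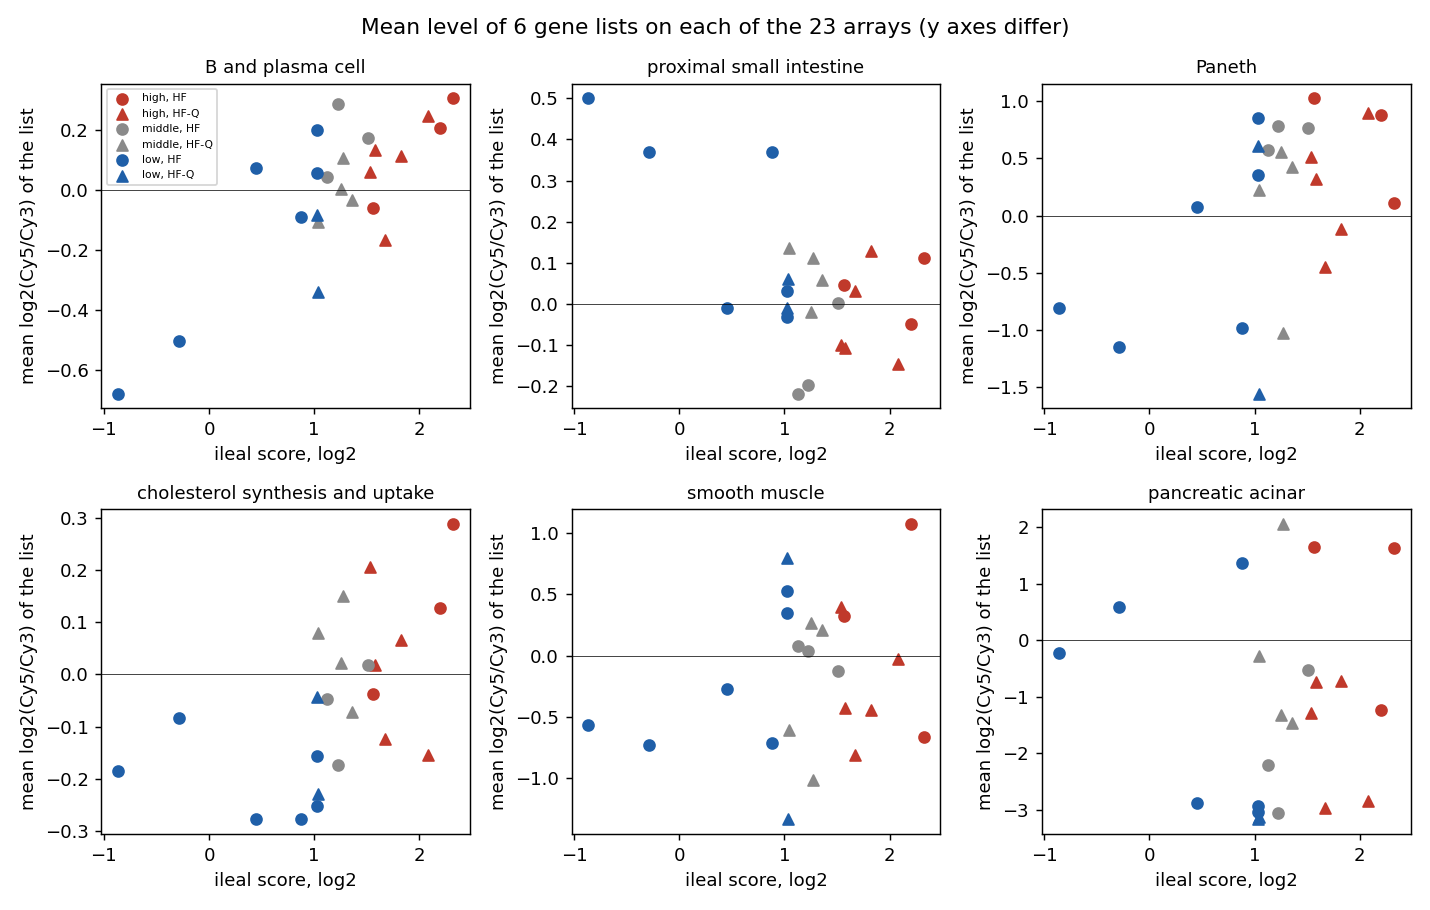
Mean log2(Cy5/Cy3) of 6 gene lists (vertical axes, which differ) against the ileal score (horizontal axis, log2) on the 23 arrays, 1 point per mouse, circles HF and triangles HF-Q, colours as sets. B cell genes run with the score, mostly through HF 1 and HF 3 at the left, and proximal genes against it, mostly through these mice and HF 4. Cholesterol genes are low across the low set, and acinar genes scatter over the whole range.

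Whether a difference between the sets depended on diet was tested with an interaction term. None of 21475 genes passed (limma, adjusted p; 602 at an unadjusted p under 0.05). The precision was low, since the HF-Q part rests on 5 against 2 mice and the HF part on 3 against 6. Slc51a was 0.54 higher within HF and 0.21 higher within HF-Q, and Hoxb7 0.88 and 0.39. Prss23 was 0.97 and 0.64 higher. Gata4 differed by -0.27 and -0.22, and Rbp2 by -0.47 and -0.50. Differences close to 0 within HF-Q and larger within HF were those of Pyy (0.84 against 0.00), Slc6a14, an amino acid transporter (1.46 against 0.07), and Duoxa2 (2.00 against -0.15), and for none of these did the interaction pass.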

How the data were processed

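Each array had 1 scanner file. Per the submitters' processing notes, Agilent Feature Extraction 10.7.3.1 read the spots; the mean and background signals are intensity values that the authors deposited with no normalization between arrays. The authors' deposited log10 ratio and the authors' deposited table of log2 values served as alternatives; deviations from the gene means in that table correlated with those of the ratios computed here at 0.863 to 0.961 across probes, which are not independent replicates, the column medians over probes were 8.97 to 9.02, and how the columns were centred stays unknown.

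Background correction by normexp (offset 50) was run in limma 3.58.1 (R 4.3.3), and arrays were then loess-normalized with 3671 control spots at weight 0. Probes with Cy5 well above background on at least 50% of arrays of either diet were kept (29249 of 55681), and the brightest probe stood for a gene. Names came from RefSeq (GRCm38.p6) for 15144 of 21475 genes; positions are mm9. Missing spots (0.127% of values in the 16 arrays) were left missing. The sets were compared by lmFit and eBayes with diet as covariate, two-sided, and Slc10a2 and Fabp6 were left out of the genes tested. The score was also fitted over 23 arrays as an alternative. P-values measure the spread between mice as labelled. Precision is limited by the number of arrays. On simulated data for 8 against 8 arrays, 94 of 100 genes changed by 1 and 66 of 100 changed by 0.5 on the log2 scale were recovered among 21475 genes, with 9 false calls. The simulated noise was independent between genes, so these shares may not hold for the measured arrays. There, larger differences did not pass either, such as 0.93 for Tmigd1 and 1.27 for Defa21. Replicate numbers of the diets were not taken as pairs. Named genes were the 15 smallest p-values per direction when none passed, all bile acid, distal and proximal list members, and up to 4 of each other list. The members and lists were chosen with earlier results of these data known. A few genes of the rule are not reported here. Alternatives covered normalization, filters, slides, set definition and left-out arrays.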

Additional observations from a re-analysis of the deposited data

Results flagged for a closer look

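Of 272 sets of 8 values (136 named genes in 2 sets), 16 (5.88%) had a highest or lowest array farther from its neighbour than Dixon's limit for 8 values allows; chance flags about 1 in 20. HF 2, the mouse with the highest score, accounted for 6, all as the highest of the high set: the mast cell protease Mcpt1 at 1.53, the tuft cell channel Trpm5 at 0.94, Alox5 at 1.28, Siglecf at 1.32, the M cell factor Spib at 1.05 and Gsdmc4 at 1.94. In the low set HF 3 was the highest for Nr1i3 (0.43) and Pkm (0.43) and the lowest for Slc52a3 (-0.78). HF-Q 10 was the highest of the low set for Fdft1 (0.060) and Agr2 (0.12). HF 4 was the highest of the low set for Fgf15 (1.94, next 0.18), HF 9 for Mcpt1 (0.74), and HF 12 was the lowest for Amn (-0.39). HF-Q 7 was the lowest of the high set for Tkfc (-0.70) and Fcgbp (-0.39).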

How the results depend on the processing

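Between the sets, 0 genes passed in either direction by limma (1588 higher and 1143 lower at an unadjusted p under 0.05) and under most alternatives. Array weights gave 1117 higher and 526 lower genes past adjusted p 0.05, and 3391 and 2560 at the unadjusted threshold; the cause was not tested. The score over all 23 arrays gave 213 and 171. With the replicate number as a block it gave 18 and 0 (795 and 671 unadjusted); same-numbered HF and HF-Q arrays deviated together with correlations from -0.35 to 0.39 over 11 pairs, so the numbers were not taken as a pairing. Alternatives added after seeing the data were the score over 21 arrays without HF 1 and HF 3 (29 and 2; 942 and 583 unadjusted), over 22 arrays without HF 2 (979 and 478; 3037 and 2224), and over 23 with acinar and muscle levels as covariates (166 and 174). Leaving out 1 array of the 16 gave 0 to 29 higher and 0 to 5 lower genes, and 933 to 2354 and 739 to 1548 unadjusted, with the highest counts without HF-Q 10 and the lowest without HF-Q 2; 3 higher genes passed without HF-Q 6 and 7 without HF-Q 3, and without HF 7 there were 975 higher unadjusted. Unadjusted counts also fell with sets by Fabp6 alone (687 and 509), 6 against 6 arrays (766 and 637), the HF-Q arrays alone (221 and 384, fewer samples) and median centring (1044 and 454). Of 136 named genes, 29 had a difference of the other sign under at least 1 alternative run, none of them past the test there. With sets by Fabp6 alone the xenobiotic median was -0.03, the fatty acid oxidation median -0.02 and the cell cycle median 0.05. The acinar median was -0.37 over the score without HF 2 and -0.02 with its own level as covariate, and the smooth muscle median -0.08 for 6 against 6 arrays. Dim probes limit Hoxb8, Hao2, Slc6a14 and Retnlb, which were above background on part of the low arrays. With 8 arrays a set, simulated differences of 0.5 on the log2 scale were often missed, and larger measured differences did not pass either.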
